A study of Mus musculus with 34 samples.

Results

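Macrophages that meet lipid-laden or dying cells can switch on genes best known from the osteoclast, the bone-resorbing cell that forms when cells of the monocyte and macrophage line fuse. This report follows 7 such genes, Dcstamp, Ocstamp, Atp6v0d2, Acp5, Ctsk, Nfatc1 and Mitf, among the 32098 genes listed for the stromal vascular fraction (SVF) of mouse visceral fat. They were chosen by name, with earlier results of these libraries known in which Atp6v0d2 rose most after 20 weeks of high fat diet. For the 7 genes the values at 20 weeks are therefore a description, and p-values of them are printed only for 8 and 34 weeks. Counts of the 7 that passed in comparisons with the 20 week libraries are a description too. Other values behind the choice are not recorded, so the tests at 8 and 34 weeks may not be independent of it.

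In the osteoclast, the ligand RANKL (Tnfsf11) acts on its receptor RANK (Tnfrsf11a), co-receptors that signal through Tyrobp and Fcer1g add a calcium signal, and the transcription factors NFATc1 and MITF then drive the mature programme. DC-STAMP and OC-STAMP are membrane proteins needed for cell fusion. The d2 subunit of the vacuolar proton pump (Atp6v0d2) takes part in fusion and in acid secretion, tartrate-resistant acid phosphatase (Acp5) and cathepsin K (Ctsk) work in the acid space, and macrophages of obese fat also use lysosomal enzymes to handle lipid.

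The SVF is the cell pellet left after collagenase digestion and floating off of adipocytes, and here it came from the perigonadal (epididymal) fat of male C57BL/6J mice and was treated to lyse red cells. All mice were wild type and started their diet at 6 weeks of age. The high fat diet (HFD) gave 60% of energy as fat, the control groups, labelled CHOW, ate a low fat control diet, and fat was taken after 8, 20 or 34 weeks of diet, at ages of 14, 26 and 40 weeks. After 8 weeks the CHOW group had 4 libraries and the HFD group 6, after 20 weeks 5 and 6, and after 34 weeks 7 and 6. The labels do not say whether each library is 1 mouse, so the p-values measure the spread between these libraries. Levels are TPM (a normalised transcript level, a share of each library's RNA per transcript length), and the 34 week libraries are in a table of their own that was made apart from that of 8 and 20 weeks.

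Between 13200 and 17213 genes reached 1 TPM per library, and read depth is unknown from TPM. The SVF label fitted its markers, since 12 of 12 macrophage genes and 9 of 9 fibroblast genes reached 1 TPM in all 34 libraries. Of the osteoblast list, Sp7, Ibsp and Dmp1 reached 1 TPM in 0 of 34 libraries, Bglap in 6, Runx2 in 32 and Alpl in 34, and the list summed to at most 16.3 TPM. Of the melanocyte list, Tyr, Tyrp1 and Sox10 reached 1 TPM in 0 of 34, Dct in 1, Pmel in 2 and Mlana in 18, and the list summed to at most 11.7 TPM. Some libraries held RNA of other cells. In HFD 8w, library 3 held 117775 TPM of seminal vesicle genes and library 6 held 267887 TPM of hemoglobin and Alas2 RNA, HFD 20w libraries 3 to 5 held between 2306 and 11994 TPM of germ cell genes, HFD 34w libraries 1 and 2 held 4915 and 5303 TPM of them, and CHOW 34w libraries 5 to 7 held between 13689 and 33224 TPM of adipocyte genes. For the 7 genes, the comparisons of HFD against CHOW, the ratio tests and the correlations are given with and without these libraries. The changes over time and the interaction were not refitted without these sets. Hemoglobin and Alas2 RNA was in every library, with the lowest sum, 7100 TPM, in HFD 34w library 5. The next highest sum after HFD 8w library 6 was 130027 TPM in CHOW 20w library 5, which was not in the sets left out.

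**Figure D1:**
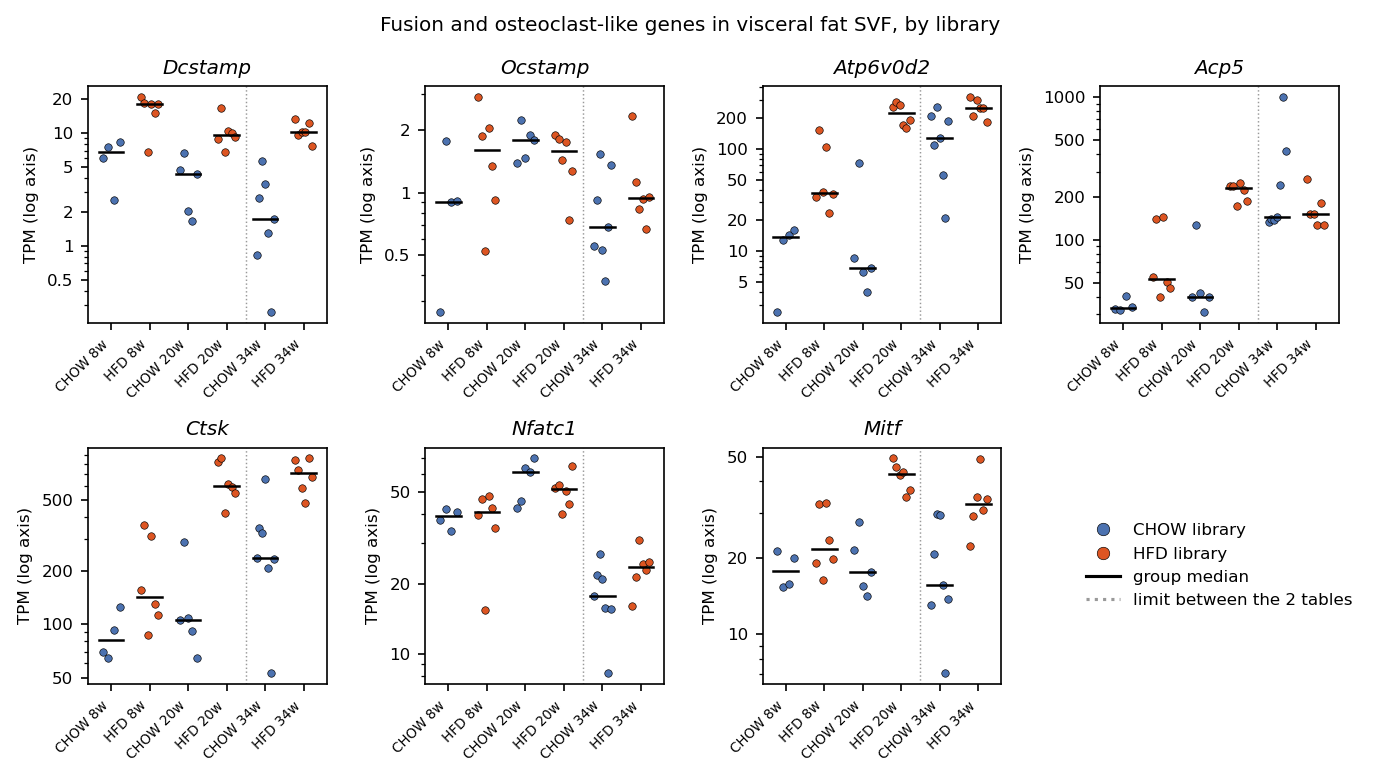
TPM of the 7 genes in each library (points, log axis) for the 6 diet and time groups, with a line at each group median; the dotted line parts the tables of 8 and 20 weeks from that of 34 weeks. Atp6v0d2 spans the widest range, from 2.56 TPM in CHOW 8w to 322 TPM in HFD 34w, while Ocstamp reaches at most 2.90 TPM in every library.

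The fusion proteins came first. Dcstamp lies at chr15:39745930-39760938 (GRCm38, plus strand) and was low but present on CHOW. At 8 weeks its level on CHOW was 6.03, 7.60, 2.54 and 8.40 TPM in the 4 libraries. On HFD it ran from 6.76 over a median of 18.2 to 21.1 TPM. Of the 6 HFD libraries, 5 were above every CHOW library, and the exception was library 3, the one with seminal vesicle RNA. At 20 weeks the CHOW libraries had 4.77, 6.72, 2.04, 1.67 and 4.33 TPM and the HFD libraries 6.78 to 16.8 TPM with a median of 9.72. The groups did not overlap, although the lowest HFD library was only just above the highest CHOW library. At 34 weeks CHOW ran from 0.261 over 1.74 to 5.62 TPM and HFD from 7.66 over 10.3 to 13.3 TPM, again with no overlap. The highest group mean was that of HFD 8w, 16.3 ± 5.05 TPM (SD, n = 6), and the lowest that of CHOW 34w, 2.28 ± 1.84 TPM (SD, n = 7), in a table of its own. Every neighbouring pair in the order of the 6 group means overlapped in range.

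Ocstamp (chr2:165393760-165400405, minus strand), the partner of Dcstamp in fusion, stayed near the limit of detection. Its group means ran from 0.854 ± 0.445 TPM in CHOW 34w (SD, n = 7) to 1.76 ± 0.339 TPM in CHOW 20w (SD, n = 5). On HFD it had 1.60 ± 0.854 TPM at 8 weeks, 1.48 ± 0.436 TPM at 20 weeks and 1.14 ± 0.609 TPM at 34 weeks (SD, n = 6 each). The diet groups overlapped at each time. At 34 weeks only 2 of 7 CHOW and 2 of 6 HFD libraries reached 1 TPM, so it fell under the filter and was not tested there.

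Atp6v0d2 (chr4:19876841-19922605, minus strand) encodes the d2 form of a subunit in the membrane part of the proton pump. At 8 weeks on CHOW it had 2.56, 12.99, 14.3 and 15.99 TPM. On HFD its level ran from 23.7 over a median of 37.2 to 153 TPM, so each HFD library was above each CHOW library. At 20 weeks 4 of the CHOW libraries were between 3.95 and 8.51 TPM and the other, library 2, had 72.3 TPM. That library also had the highest summed level of the macrophage list in its group, 13746 TPM against 5815 to 9644 TPM in the others. The HFD libraries of 20 weeks ran from 161 over 225.5 to 288 TPM and did not overlap with CHOW. At 34 weeks CHOW libraries spread from 20.9 over 126 to 254 TPM and HFD libraries from 184 over 253 to 322 TPM. The 34 week groups overlapped, and 2 of 6 HFD libraries were above every CHOW library. The order of the group means was CHOW 8w (11.5 TPM), CHOW 20w (19.6 TPM), HFD 8w (64.7 TPM), CHOW 34w (137 TPM), HFD 20w (223 TPM) and HFD 34w (253 TPM). Neighbours in this order overlapped in range, and the 34 week levels come from a table normalized separately.

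The subunit has a close relative, Atp6v0d1, which most cells use in the same place of the pump. Both are per-length levels from the same library, and the percent below is a plain ratio of TPM, while the log2 ratio that was tested has 1 TPM added to both. Atp6v0d1 had group means from 119 to 165 TPM. On CHOW and HFD they were 146 and 128 TPM at 8 weeks, 119 and 149 TPM at 20 weeks, and 165 and 143 TPM at 34 weeks. The ratio therefore also holds the differences in Atp6v0d1. At 8 weeks Atp6v0d2 stood at 2.09% to 11.7% of the Atp6v0d1 level on CHOW and at 16.8% to 96.7% on HFD, medians 8.75% and 44.1%. The difference in mean log2 ratio was 2.50 (two-sided exact permutation test, p = 0.009524, adjusted over the 2 times tested 0.009524). At 20 weeks the share was 3.55% to 49.3% on CHOW and 133% to 174% on HFD, given as values only. At 34 weeks it was 13.7% to 141% on CHOW and 153% to 203% on HFD, so d2 exceeded d1 in all 6 HFD libraries and in 3 of 7 CHOW libraries. There the difference in mean log2 ratio was 1.43 (two-sided exact permutation test, p = 0.001166, adjusted 0.002331). Atp6v0d2 by itself was not called at 8 or 34 weeks (limma adjusted p = 0.195 and 0.3003). Without HFD 8w libraries 3 and 6 the difference at 8 weeks was 2.48 (exact permutation p = 0.02857). Without CHOW 34w libraries 5 to 7 that at 34 weeks was 0.85 (exact permutation p = 0.009524), and without HFD 34w libraries 1 and 2 it was 1.41 (exact permutation p = 0.006061). Each p is the smallest that the group sizes allow, and with pairs of the same replicate number the exact p was 0.125 at 8 weeks, again the smallest possible for 4 pairs.

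**Figure D2:**
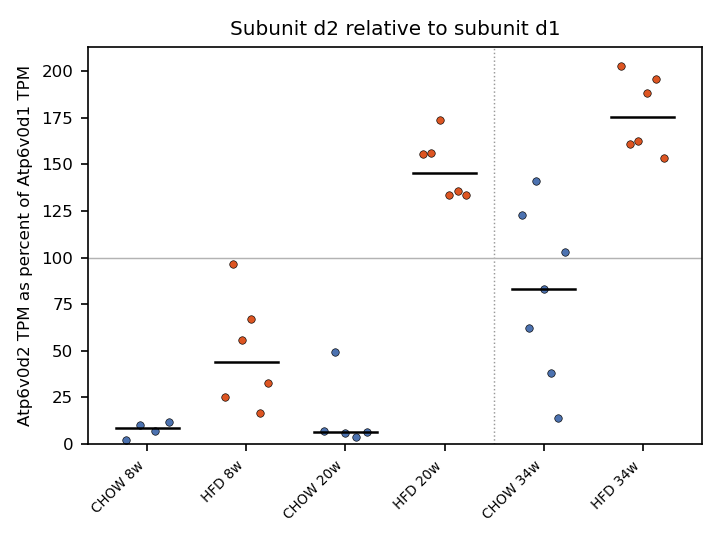
Level of Atp6v0d2 as a percent of the level of Atp6v0d1 in each library (points) with group medians (lines); the grey line marks equal levels. HFD libraries lie above CHOW libraries at each time, with medians of 44.1%, 145% and 176% on HFD against 8.75%, 6.504% and 82.9% on CHOW.

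The enzymes Ctsk (chr3:95499256-95509362, plus strand) and Acp5 (chr9:22126727-22135711, minus strand) cut collagen and remove phosphate in the acid space. Ctsk at 8 weeks had 69.3, 64.3, 92.8 and 125 TPM on CHOW and ran from 86.8 over 143 to 361 TPM on HFD. At 20 weeks CHOW libraries had 106, 291, 109, 90.9 and 64.2 TPM, with library 2 again the highest, and HFD libraries ran from 425 over 604 to 861 TPM. At 34 weeks CHOW ran from 52.8 over 237 to 655 TPM and HFD from 481 over 709 to 861 TPM. The groups overlapped at 8 and 34 weeks and did not at 20 weeks. Fibroblasts express Ctsk as well, and the fibroblast list summed to 5029 to 9163 TPM in HFD 20w and 6754 to 9277 TPM in CHOW 20w. Of its 9 genes 2 were called higher and 2 lower on HFD at 20 weeks. Their median log2 fold change was 0.45, against 0.08 over all genes.

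Acp5 at 8 weeks had 32.9, 32.2, 40.3 and 33.9 TPM on CHOW and ran from 39.5 over 52.8 to 144 TPM on HFD. At 20 weeks CHOW libraries had 39.96, 127, 42.1, 31.3 and 39.5 TPM and HFD libraries ran from 172 over 230.1 to 250.4 TPM. At 34 weeks the picture turned. CHOW ran from 134 over 144 to 1007 TPM, above the HFD range of 126 to 268 TPM at its upper end. The 3 CHOW libraries above 144 TPM were libraries 5, 6 and 7 with 242, 1007 and 419 TPM, the same libraries that held the most adipocyte RNA.

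Across the 21 libraries of 8 and 20 weeks, Acp5 and Ctsk moved together most closely of all pairs of the 7 genes, with a Pearson r of log2(TPM + 1) of 0.979 and of 0.908 within groups, or 0.973 without HFD 8w libraries 3 and 6 and HFD 20w libraries 3 to 5. At 34 weeks the same pair had an r of -0.717, of 0.558 without CHOW 34w libraries 5 to 7 and of -0.814 without HFD 34w libraries 1 and 2. These r describe the libraries, which share dissection and cell mixture, and carry no test. Their promoter windows, 250 bases before to 50 after a listed start, are shown because this pair moved together at 8 and 20 weeks and because NFATc1 and MITF are known to bind such genes in osteoclasts. Capitals mark the MITF E-boxes CACGTG and CATGTG and the NFAT core GGAAA on either strand, where CATGTG reads CACATG and GGAAA reads TTTCC on the other strand. Sequences are from RefSeq (GRCm38.p6), 5′ to 3′ along the gene, at chr9:22130549-22130848 (minus strand) for the most downstream of 3 Acp5 starts and at chr3:95498960-95499259 (plus strand) for Ctsk.
Acp5: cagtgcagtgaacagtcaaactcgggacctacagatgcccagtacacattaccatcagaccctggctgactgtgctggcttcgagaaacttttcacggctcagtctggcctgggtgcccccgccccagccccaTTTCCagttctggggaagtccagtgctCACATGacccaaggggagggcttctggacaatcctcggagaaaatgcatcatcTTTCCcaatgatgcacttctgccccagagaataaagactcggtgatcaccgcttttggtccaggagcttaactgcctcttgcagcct
Ctsk: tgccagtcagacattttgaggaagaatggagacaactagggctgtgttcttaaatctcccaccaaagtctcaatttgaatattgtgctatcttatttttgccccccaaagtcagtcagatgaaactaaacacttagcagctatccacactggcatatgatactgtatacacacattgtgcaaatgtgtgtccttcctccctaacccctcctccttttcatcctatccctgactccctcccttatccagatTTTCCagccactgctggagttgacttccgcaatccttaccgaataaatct

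The Acp5 window held 1 CATGTG, starting 90 bases before the start, and 2 GGAAA cores, and the Ctsk window held 1 GGAAA core and no E-box. The windows of the other 2 Acp5 starts held no E-box and 1 GGAAA core each. Over all 32851 promoter windows of the table, 20.4% held either E-box, with 14.2% holding CATGTG and 7.15% holding CACGTG, and 61.3% held GGAAA. A match is a description of letters, not of binding. The table had an entry for 3 of the 7 genes, and the 3 Mitf windows held no E-box.

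The transcription factors differed from each other. Nfatc1, the master regulator of the osteoclast, had 38.8 ± 3.61 TPM on CHOW (SD, n = 4) and 37.8 ± 11.9 TPM on HFD (SD, n = 6) at 8 weeks, 56.4 ± 11.9 TPM (SD, n = 5) and 50.9 ± 8.52 TPM (SD, n = 6) at 20 weeks, and 18.2 ± 5.95 TPM (SD, n = 7) and 23.5 ± 4.87 TPM (SD, n = 6) at 34 weeks. Its diet groups overlapped at each time. The 34 week means were the lowest of the 6, in the table normalized separately.

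Mitf (chr6:97807052-98021349, plus strand) serves osteoclasts, pigment cells and mast cells. It had 18.04 ± 2.97 TPM on CHOW and 23.97 ± 7.10 TPM on HFD at 8 weeks (SD, n = 4 and 6). At 20 weeks CHOW libraries had 21.5, 27.6, 15.5, 14.1 and 17.6 TPM and HFD libraries ran from 34.5 over 42.9 to 49.3 TPM, with no overlap. At 34 weeks CHOW ran from 7.02 over 15.6 to 29.8 TPM and HFD from 22.3 over 32.4 to 48.96 TPM. All 9 mast cell genes were measured. The range of their summed level lay higher on HFD at 20 and 34 weeks, as did that of Mitf. The sum was 547 to 822 TPM in CHOW 20w against 656 to 3036 TPM in HFD 20w. In CHOW 34w it was 118 to 1171 TPM against 844 to 2936 TPM in HFD 34w. At 8 weeks the sum was lower on HFD, 137 to 307 TPM against 328 to 626 TPM, while the mean of Mitf was higher. The melanocyte list summed to 0.177 to 1.38 TPM in CHOW 20w and to 2.67 to 6.84 TPM in HFD 20w. Only 1 of its 6 genes passed the filter at 20 weeks, and it was called higher on HFD. The part of mast and pigment cells in the Mitf values was not tested. In such bulk samples more cells of a type and more RNA per cell cannot be told apart.

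The first comparison asks whether the genes already differed after 8 weeks of diet. Atp6v0d2 and Dcstamp had the highest values on HFD relative to CHOW, but no gene of the 7 passed the threshold once p-values were adjusted over all 16808 genes tested. By limma, the log2 fold change of TPM + 1 was 2.29 for Atp6v0d2 (SE 0.62, adjusted p = 0.195) and 1.30 for Dcstamp (SE 0.34, adjusted p = 0.166). It was 0.98 for Ctsk (SE 0.39, adjusted p = 0.411) and 0.96 for Acp5 (SE 0.36, adjusted p = 0.366). The other 3 had smaller values, 0.39 for Ocstamp, 0.36 for Mitf and -0.11 for Nfatc1, with adjusted p of 0.650, 0.590 and 0.949.

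Thus 0 of 7 were called by limma at 8 weeks, against 4 of 16808 genes (0.0238%), all 4 lower on HFD. At an unadjusted p under 0.05 there were 4 of 7, against 1630 genes (9.70%). Atp6v0d2 was the only one with every HFD library above every CHOW library, which held for 0.339% of the genes tested. The median log2 fold change was 0.96 over the 7 genes and -0.08 over all genes. The macrophage list did not stand apart at this time, with summed levels of 8424 to 13218 TPM on CHOW and 5591 to 13114 TPM on HFD. Atp6v0d2 passed with the macrophage score as a covariate (log2 fold change 2.58, limma adjusted p = 0.0157), a fit that called 105 of all genes in place of 4, and with sample weights, which called 209. It had 1.47 with the adipocyte score (limma adjusted p = 0.383), and no other alternative called it. Without HFD 8w libraries 3 and 6 the values were 2.51 for Atp6v0d2, 1.51 for Dcstamp, 1.36 for Ctsk and 1.30 for Acp5, and 0 of 7 passed (limma adjusted p from 0.101 to 0.699 over the 7).

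At 20 weeks the values were larger for most of the 7. The log2 fold change was 4.25 (SE 0.58) for Atp6v0d2, the highest of all 16808 genes tested, 2.44 (SE 0.36) for Ctsk, 2.13 (SE 0.34) for Acp5, 1.28 (SE 0.31) for Dcstamp and 1.11 (SE 0.19) for Mitf. Nfatc1 had -0.13 (SE 0.22) and Ocstamp -0.16 (SE 0.24). As ratios of mean TPM, Atp6v0d2 was 11.4 times, Ctsk 4.87 times and Acp5 3.89 times as high on HFD. Of the 7, 5 passed the threshold, where 14.3% of all genes did, and the same 5 had no overlap between the libraries of the diets, where 5.5% of all genes had every HFD library above every CHOW library. This contrast led to the choice of the genes, so nothing is read from these counts. The macrophage list summed to 5815 to 13746 TPM on CHOW and 10060 to 17192 TPM on HFD, with 5 of its 12 genes called higher and 1 lower. Other lists moved too: on HFD 8 of 9 mast cell genes were called higher, and 5 of 5 erythroid genes, 5 of 9 adipocyte genes and 3 of 5 monocyte genes were called lower. Erythroid genes summed to 27334 to 130027 TPM on CHOW and 12622 to 30448 TPM on HFD, adipocyte genes to 4690 to 7742 and 3305 to 5394 TPM, and monocyte genes to 153 to 455 and 93.4 to 148 TPM. Fabp4 weighs most in the adipocyte sum. Its median over all 34 libraries was 4846 TPM, and that of Pnpla2, the next highest, was 180 TPM. With the adipocyte score in the fit, 4 of the 5 genes passed and Dcstamp did not, and the part of the other cells was not tested. Without HFD 20w libraries 3 to 5 the log2 fold change was 4.41 for Atp6v0d2, 2.66 for Ctsk, 2.16 for Acp5, 1.42 for Dcstamp and 1.17 for Mitf.

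The change over time on each diet and the interaction share these libraries. They are given likewise, and nothing is read from their counts. On HFD, from 8 to 20 weeks, Atp6v0d2 rose by 2.07, Ctsk by 1.89, Acp5 by 1.65 and Mitf by 0.82 on the log2 scale, so 4 of 7 passed where 8.78% of all genes did. All 4 calls were lost with the adipocyte score as a covariate, where Atp6v0d2 had 0.55, Ctsk 1.25, Acp5 0.95 and Mitf 0.65. With the macrophage score Atp6v0d2 alone lost its call (1.32). On HFD over this time 6 of 9 adipocyte genes and 5 of 5 erythroid genes were called lower and 9 of 9 mast cell genes higher. Dcstamp had -0.58 (SE 0.30) and Nfatc1 0.49 (SE 0.21). On CHOW, 0 of 7 passed by limma where 0.613% of all genes did, and 1 of 7 at an unadjusted p under 0.05 where 12.5% did; the fold changes ran from -0.56 for Dcstamp to 0.54 for Ocstamp. In the interaction, which compares the diet effect of 20 weeks with that of 8 weeks, 0 of 7 passed by limma where 0.297% of all genes did, and 4 of 7 at an unadjusted p under 0.05 where 13.8% did. Its values were 1.96 (SE 0.85) for Atp6v0d2, 1.46 (SE 0.53) for Ctsk, 1.18 (SE 0.49) for Acp5, 0.76 (SE 0.27) for Mitf and -0.02 (SE 0.46) for Dcstamp.

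**Figure D3:**
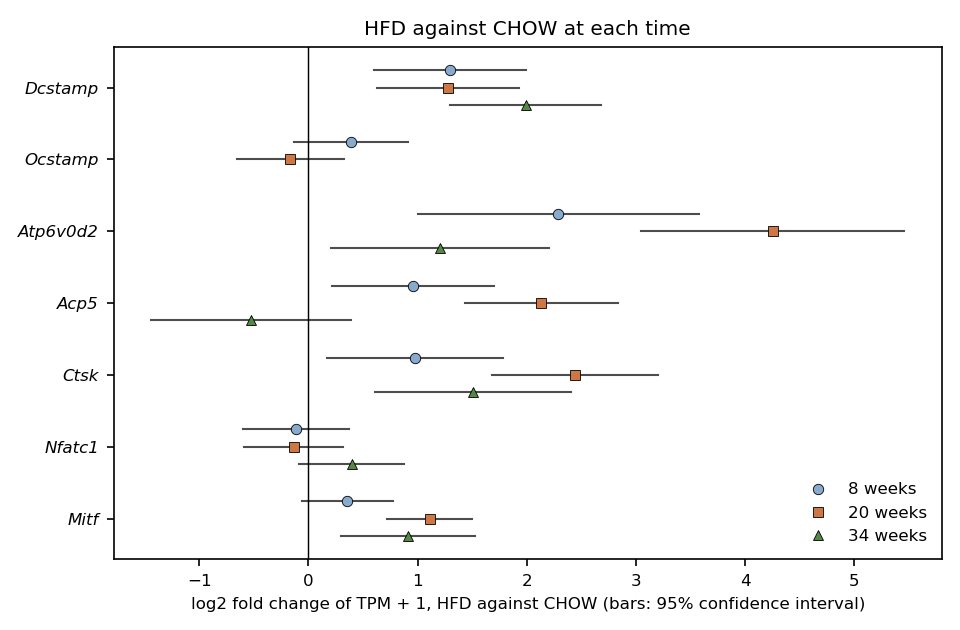
Log2 fold change of TPM + 1, HFD against CHOW, for the 7 genes at 8, 20 and 34 weeks, with bars for the 95% confidence interval; Ocstamp was not tested at 34 weeks. Dcstamp lies between 1.28 and 1.99 at the 3 times, Atp6v0d2 is highest at 20 weeks (4.25), and Acp5 goes from 2.13 at 20 weeks to -0.52 at 34 weeks.

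At 34 weeks Dcstamp was the gene that rose. Its log2 fold change was 1.99 (SE 0.32, limma adjusted p = 0.0358), mean TPM was 4.63 times as high on HFD, and all 6 HFD libraries were above all 7 CHOW libraries. Ctsk had 1.51 (SE 0.42, adjusted p = 0.168), Atp6v0d2 1.21 (SE 0.47, adjusted p = 0.3003), Mitf 0.91 (SE 0.29, adjusted p = 0.225) and Nfatc1 0.40 (SE 0.23, adjusted p = 0.456). Acp5 had -0.52 (SE 0.43, adjusted p = 0.597). So 1 of 6 tested was called, against 34 of 13982 genes (0.243%), all 34 higher on HFD, and 4 of 6 had an unadjusted p under 0.05, against 13.2% of all genes. Every HFD library was above every CHOW library for Dcstamp alone of the 6, and for 0.737% of all genes. The median log2 fold change was 1.06 over the 6 genes and 0.10 over all genes. The macrophage list did not stand apart, with 5238 to 20529 TPM on CHOW and 12174 to 18760 TPM on HFD. Of the mast cell list, 4 of 9 genes were called higher on HFD and 0 lower, with a median log2 fold change of 2.53. The part of mast cells in these values was not tested.

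The call for Dcstamp depended on single libraries. It did not pass without CHOW 34w library 1 (adjusted p = 0.0925), 5 (0.0744) or 7 (0.0829), nor without HFD 34w library 2 (0.0819), 3 (0.0952), 4 (0.0847), 5 (0.122) or 6 (0.0674), all by limma, while its log2 fold change stayed between 1.79 and 2.19. The adipocyte list summed to 3017 to 33224 TPM in CHOW 34w and 2837 to 5874 TPM in HFD 34w. Without CHOW libraries 5 to 7, Dcstamp had 1.60 (limma adjusted p = 0.123), Ctsk 0.91 (0.297), Atp6v0d2 0.60 (0.467), Mitf 0.53 (0.530) and Nfatc1 0.08 (0.918). Acp5 turned to 0.23 (0.735). Without HFD 34w libraries 1 and 2, Dcstamp had 1.94 (limma adjusted p = 0.0754) and Acp5 -0.68 (0.572). That all 6 HFD libraries were above every CHOW library for Dcstamp holds for any subset of them, so it is no check on the call.

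**Figure D4:**
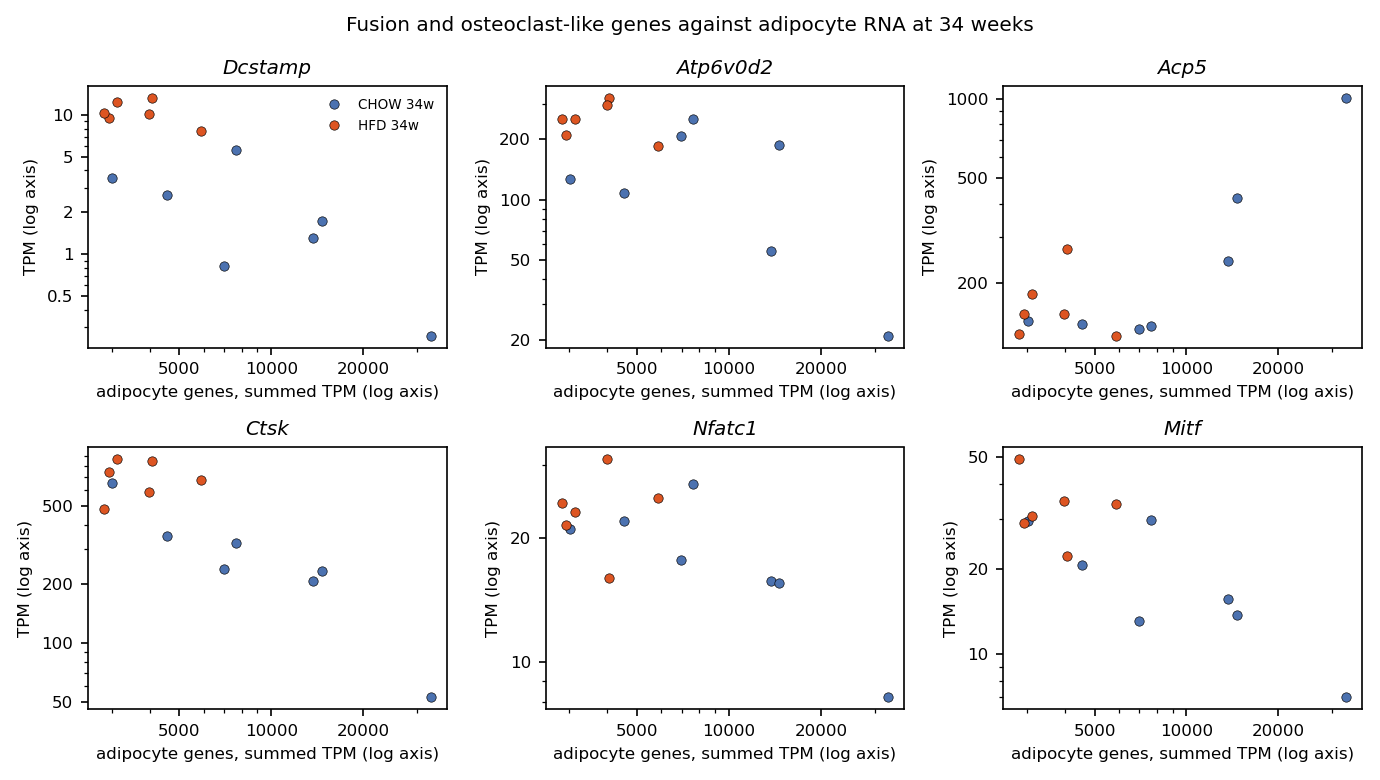
TPM of 6 of the genes against the summed TPM of the adipocyte list in each of the 13 libraries of 34 weeks (points, both axes log). The CHOW library with 33224 TPM of adipocyte RNA is the lowest for Dcstamp (0.261 TPM), Atp6v0d2 (20.9 TPM), Ctsk (52.8 TPM), Nfatc1 (8.24 TPM) and Mitf (7.02 TPM) and the highest for Acp5 (1007 TPM).

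The other genes of the pathway were counted from a list of 76, with 14 relatives of the pump subunit and of the enzymes beside it. The lists were chosen with earlier results of these libraries known, so their counts and p-values may not be independent of that choice. At 8 weeks, 0 of 73 pathway genes and 0 of 14 relatives were called by limma, where 0.0238% of all genes were, and 9 and 1 had an unadjusted p under 0.05, where 9.70% of all genes had. At 20 weeks, 20 of 73 were higher on HFD, where 9.32% of all genes were, and 4 were lower, where 4.99% were. Of the relatives, 8 of 14 were higher. At 34 weeks, 3 of 72 were higher and 0 of 14 relatives were called by limma, where 0.243% of all genes were, with 17 and 1 at an unadjusted p under 0.05, where 13.2% of all genes had such a p. The count of 20 at 20 weeks fell to 13, 12 and 11 without CHOW 20w library 3, 4 or 5, to 12 without HFD 20w libraries 3 to 5, and to 4 once the adipocyte score was in the fit.

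The counts by role that follow stand against the 9.32% of all genes called higher and the 4.99% called lower at 20 weeks. These counts and the p-values beside them are a description, since the lists were chosen with earlier results known. Among ligands and receptors, 1 of 9 rose and 2 fell. Tnfrsf11b, the decoy receptor osteoprotegerin that holds RANKL off its receptor, fell from 14.8 to 2.91 TPM (log2 fold change -2.07, SE 0.41, limma adjusted p = 0.00237). The other calls lie outside the naming rule and were picked after their values were seen: the receptor Tnfrsf11a had 0.95 (SE 0.28, adjusted p = 0.0308) and the ligand Tnfsf11 -0.88 (SE 0.24, adjusted p = 0.0212), at means of 12.6 and 1.06 TPM on HFD against 6.41 and 2.89 TPM on CHOW. The growth factor receptor Csf1r, which macrophages need to live, was at 347 ± 70.7 TPM on CHOW and 415 ± 109 TPM on HFD at 20 weeks (SD, n = 5 and 6).

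Of the co-stimulation genes, 5 of 10 rose at 20 weeks. Trem2, a lipid-sensing receptor that signals through Tyrobp, rose most, from 92.3 to 653 TPM (log2 fold change 3.23, SE 0.46, adjusted p = 0.000169). Of the fusion partners, 7 of 16 rose, led by the surface protease Adam8, from 112 to 344 TPM (1.70, SE 0.36, adjusted p = 0.00407). Of the transcription genes 4 of 9 rose and 1 fell, the NFAT family member Nfatc2 (-1.02, SE 0.19, adjusted p = 0.00157), which went from 31.9 to 14.7 TPM. The signal relay (11 tested) and restraint genes (6 tested) had 0 calls by limma, with 2 and 1 at an unadjusted p under 0.05.

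Of the resorption genes, 3 of 12 rose and 1 fell at 20 weeks. Ckb, the brain-type creatine kinase that osteoclasts use for energy, went from 72.6 to 256 TPM (1.82, SE 0.25, adjusted p = 0.000129). Mmp9, a matrix protease that osteoclasts and neutrophils make, fell from 40.7 to 3.91 TPM (-3.14, SE 0.36, adjusted p = 2.02e-05). Of the pump relatives 4 of 9 rose, led by Atp6v0a1 (1.55, SE 0.24, adjusted p = 0.000303), and of the enzyme relatives 4 of 5, led by cathepsin S, Ctss (1.71, SE 0.37, adjusted p = 0.00459).

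At 34 weeks the 3 pathway calls were Il13, a cytokine that promotes macrophage fusion, Ckb and Siglec15, a fusion-linked sialic acid receptor. Il13 rose from 1.06 to 9.51 TPM (2.29, SE 0.38, limma adjusted p = 0.0358), with libraries of the diets overlapping, and Ckb from 106 to 233 TPM (1.22, SE 0.23, adjusted p = 0.0481). Siglec15, under the level set for naming and picked after its values were seen, had 1.51 (SE 0.26, adjusted p = 0.0395). All 3 calls were lost without any 1 of CHOW 34w libraries 1, 3, 5 or 7 or HFD 34w libraries 2 to 6, and without CHOW libraries 5 to 7 together, and 1 of 3 was left without HFD 34w libraries 1 and 2.

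**Figure D5:**
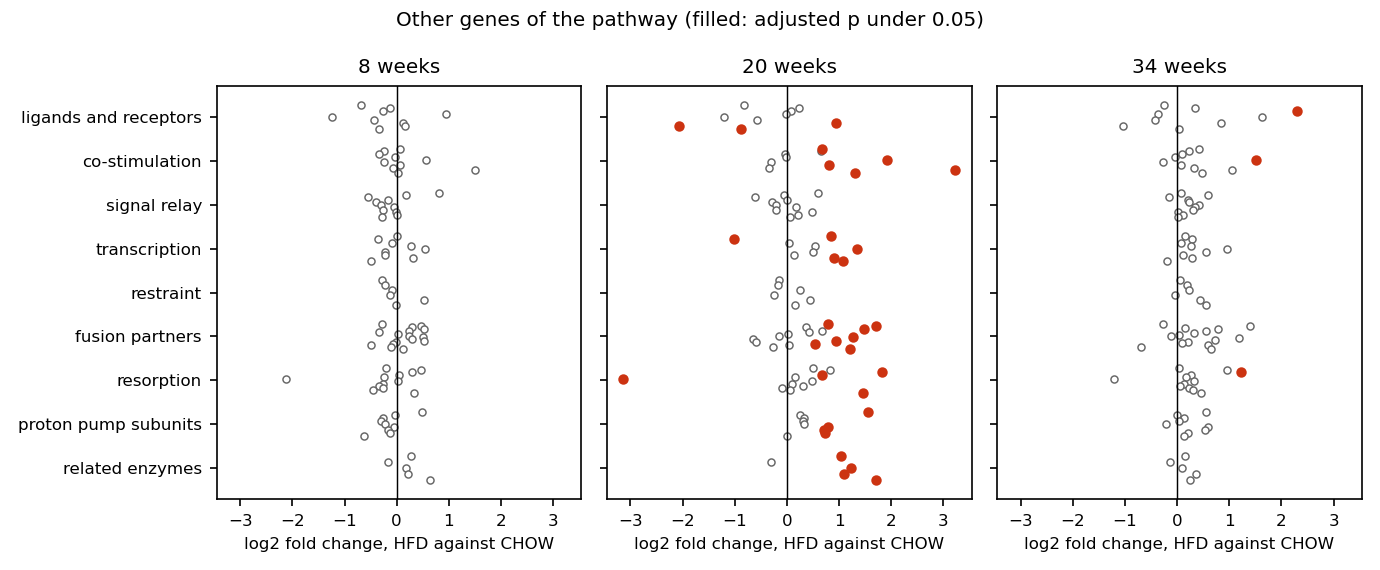
Log2 fold change, HFD against CHOW, of the other pathway genes and of the pump and enzyme relatives at 8, 20 and 34 weeks, 1 point per gene in rows by role; filled points passed an adjusted p of 0.05. Filled points number 0 at 8 weeks, 32 at 20 weeks and 3 at 34 weeks.

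The genes whose pattern was most like that of Atp6v0d2 were found by the Pearson r of log2(TPM + 1) over libraries, among genes with a mean of at least 5 TPM. Over the 21 libraries of 8 and 20 weeks they were Rnf128 (0.993), Vsig8 (0.986), Gpnmb (0.982), Trem2 (0.969) and Cdk18 (0.964). Within groups their r ran from 0.852 to 0.977, and without HFD 8w libraries 3 and 6 and HFD 20w libraries 3 to 5 from 0.970 to 0.992. Over the 13 libraries of 34 weeks they were Arhgap25 (0.983), Apobr (0.976), Gpr137b (0.974), Cd84 (0.967) and Gpnmb (0.965). Without CHOW 34w libraries 5 to 7 the r of these 5 were 0.926, 0.902, 0.852, 0.870 and 0.761. Gpnmb, a glycoprotein of lysosomes, was in both sets of 5, and Apobr had an r of only 0.535 at 8 and 20 weeks. All these r are descriptions of libraries that share cell mixture, with no test.

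Of the 7 genes themselves, Acp5 had an r with Atp6v0d2 of 0.929 at 8 and 20 weeks and of -0.673 at 34 weeks, Ctsk 0.923 and 0.805, Mitf 0.884 and 0.717, Dcstamp 0.601 and 0.768, and Nfatc1 0.033 and 0.757. The 34 week values, that of Ocstamp apart, depended on CHOW 34w libraries 5 to 7, those with most adipocyte RNA. Without these libraries r was 0.472 for Acp5, 0.256 for Ctsk, 0.240 for Mitf, 0.613 for Dcstamp, 0.098 for Nfatc1 and 0.482 for Ocstamp. That of Acp5 thus changed sign. Without HFD 34w libraries 1 and 2 the r, in the same order of genes, were -0.750, 0.788, 0.745, 0.743, 0.859 and 0.426.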

How the data were processed

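Reads of 34 stranded mRNA libraries were checked by the authors with FastQC and MultiQC, trimmed with Trimmomatic and quantified with Salmon against gencode M10 (mm10), and summed to genes (tool versions: not given in the sources used here). For these libraries the authors deposited TPM values, 1 table for 8 and 20 weeks (21 libraries) and 1 for 34 weeks (13 libraries); their own test (DESeq2 on counts) is not used here. Each library sums to 1000000 TPM, so depth is unknown. Symbols came from gencode M21 (GRCm38) for 31791 of 32098 IDs. No pair of libraries held identical values.

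Genes at 1 TPM or more in 4 libraries (8 and 20 weeks) or 6 (34 weeks) were fitted as log2(TPM + 1), which understates the change of low genes, with limma 3.58.1 (R 4.3.3; lmFit, contrasts, eBayes with trend), 1 fit per table. Tests were two-sided, adjusted by Benjamini-Hochberg over all genes of a comparison, threshold 0.05, for 6 comparisons. The steps were tested on simulated data. Exact permutation tests used scipy 1.17.1.

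The 7 genes, the pathway lists and the tests were chosen with earlier results of these data known. Every one of the 7 is named. Of the other pathway genes, up to 5 called in each direction with a mean of 5 TPM in 1 group are named, and the 5 genes most like Atp6v0d2 in each table. Of 13 cell type lists, T cell (22.4 to 169.7 TPM summed), B cell (21.6 to 114 TPM) and endothelial genes (247 to 1861 TPM) stand here only.

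Alternatives were the pseudocount, the filter, scaling, sample weights, adipocyte or macrophage scores as covariates, a replicate block and leaving out each library. Leaving out libraries with RNA of other tissues, in the fits of HFD against CHOW, the ratio and the correlations, was chosen after seeing the data.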

Additional observations from a re-analysis of the deposited data

Results flagged for a closer look

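In 6 of 42 sets of values (7 genes in 6 groups), 1 library stood far from the others of its group by Dixon's gap test, which chance gives in about 1 of 20 sets. CHOW 20w library 2 was far above its group for Atp6v0d2 (72.3 TPM), Acp5 (127 TPM) and Ctsk (291 TPM). HFD 20w library 2 was far above its group for Dcstamp (16.8 TPM). CHOW 34w library 6 was far above its group for Acp5 (1007 TPM). HFD 34w library 1 was far above its group for Ocstamp (2.35 TPM).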

How the results depend on the processing

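Counts of the 7 genes called moved as follows. At 34 weeks the 1 call became 0 with a pseudocount of 0.1 TPM, with no filter, with the adipocyte score, with the replicate block and without CHOW libraries 5 to 7 or HFD libraries 1 and 2, and 2 with sample weights or the macrophage score; leaving out 1 library gave 0 to 1. At 8 weeks 0 became 2 with sample weights and 1 with the macrophage score. From 8 to 20 weeks, 4 on HFD became 0 with the adipocyte score, and leaving out 1 library gave 3 to 4. With the macrophage score Atp6v0d2 lost its call on HFD (log2 fold change 1.32). On CHOW, 0 became 2 with sample weights. At 20 weeks the count was 5 in every fit but that with the adipocyte score (4). Pathway genes called higher at 20 weeks, 20, became 13 with no filter, 4 with the adipocyte score and 12 without the HFD libraries rich in germ cell RNA (11 to 23 leaving out 1 library). Those called lower, 4, became 7 with median-ratio scaling, 9 with quantile normalization, 11 with sample weights, 2 with the adipocyte score and 7 with the replicate block (3 to 6 leaving out 1 library). At 34 weeks the 3 called higher became 0 with a pseudocount of 0.1 TPM, no filter, a filter of 5 TPM, the adipocyte score, the replicate block or without CHOW libraries 5 to 7, 1 without HFD libraries 1 and 2, and 5 with sample weights (0 to 3 leaving out 1 library); 0 called lower became 2 with sample weights (0 to 1). At 8 weeks 0 called higher became 3 with sample weights and 1 with the macrophage score, and 0 called lower became 1 with a filter of 5 TPM, sample weights, the macrophage score or the replicate block (0 to 1). Acp5 at 34 weeks turned from -0.52 to 0.31 with the adipocyte score and 0.23 without CHOW libraries 5 to 7. Nfatc1 at 8 weeks turned from -0.11 to 0.085 with sample weights, 0.12 without HFD library 3 (-0.20 to 0.12 leaving out 1 library) and 0.18 without HFD libraries 3 and 6. The causes were not tested.

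Whether replicate numbers pair the libraries is not settled, because pairs of unlike number were not compared. Same-numbered libraries had an r of deviations over 0.1 in 2 of 4, 1 of 5 and 3 of 6 pairs at 8, 20 and 34 weeks. With the replicate block the log2 ratio of Atp6v0d2 to Atp6v0d1 differed by 2.91 at 8 weeks (exact p = 0.125) and 1.54 at 34 weeks (exact p = 0.0312, the smallest for 6 pairs). Leaving out 1 library, the ratio differed by 2.05 to 2.76 at 8 weeks (exact p from 0.0159 to 0.0238) and by 1.06 to 1.61 at 34 weeks, and a pseudocount of 0.1 TPM gave 2.65 and 1.44.

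All-gene counts moved more. Over all alternatives, leaving out 1 library included, the 4 at 8 weeks became 0 to 209, the 2405 at 20 weeks 398 to 5092 and the 34 at 34 weeks 0 to 294. From 8 to 20 weeks, 1475 on HFD became 117 to 2755 and 103 on CHOW became 24 to 1659, and the 50 of the interaction became 13 to 400. The interaction shifted all genes by a median of 0.18 as deposited and 0.02 after median-ratio scaling. TPM without read depth gives no counting error, and this limits what can be said of Ocstamp.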
